A study of Sus scrofa with 2 samples.

Results

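IGF1 and IGFBP2 are 2 genes of the insulin-like growth factor axis, and they were chosen by symbol from the 26881 features of the deposited tables (identifiers ENSSSCG00025065189 and ENSSSCG00025048742). Both were followed in single cells of pig endometrium, in epithelial cells including the glands, macrophages, stromal cells and trophoblast-like cells. Both donors were Yorkshire sows of 3 years with similar genetic backgrounds per the series' description. The embryo loss library (EL) came from 1 sow that had aborted and then failed to conceive at 3 inseminations in a row, and no stage is given for the sampling. The implantation library (EIS) came from 1 sow sampled 30 days after a successful insemination. The endometrium was taken from each uterine horn, about 200 mg was digested with collagenase and a second protease, and cells were captured with 10x Genomics 3' chemistry, which tags each transcript with a unique molecular identifier (UMI). Each group is 1 sow and 1 library. Sow, stage, pregnancy and library therefore cannot be told apart, no test across sows exists, and every interval below is at 95% and covers counting error only.

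IGF1 is a secreted growth factor that acts through the receptor tyrosine kinase IGF1R, and in the uterus it is known mainly as a product of connective tissue cells. IGFBP2 is one of the secreted binding proteins that hold insulin-like growth factors in extracellular fluid and can restrain or carry them. Proteases such as PAPPA2 cleave some binding proteins, and adaptors such as IRS1 pass the receptor signal to the kinases AKT and MTOR. In the pregnant pig the placenta does not invade the endometrium, and the conceptus takes up secretions of the uterine glands, among them uteroferrin.

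In total 43302286 UMIs from 10936 barcodes were counted for EL and 36069473 from 8848 for EIS, and 27 barcode sequences occurred in both. Filtering left 9841 cells in EL (median depth 2316 UMIs) and 8048 in EIS (median depth 2240). A cell was gated as a type when it carried at least 3 markers of that type above the level expected from free RNA, and more than of any other type. Transcripts of SLPI (a protease inhibitor), ACP5 (uteroferrin, an iron carrier) and UABP-2, whose product binds uteroferrin, made up 0.0342% of EL and 23.2% of EIS UMIs. Their share of a cell's UMIs is called its secretion share here. It lay under 5% in 9840 EL cells and in 1927 EIS cells. Macrophage, stromal, trophoblast-like, endothelial, ciliated and lymphoid cells were used only under that limit, because EIS cells above it carried markers of several types: in the stromal gate COL3A1 stood at 5666 CPM above the limit and 31667 CPM under it, and the trophoblast gene SMPDL3A at 1715 and 112 CPM. The limit was set after these data had been seen.

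Cells entered a gate by the markers of its list, so the marker values given here describe the gates and are no check on them. All 9 measured macrophage markers had UMIs in the macrophages of both libraries (9540 and 12335 CPM in sum, where CPM is the usual depth-scaled count over all UMIs of the gate). Of 11 measured stromal markers, 9 had UMIs in EL and 11 in EIS stromal cells, and all 9 measured epithelial markers had UMIs in both epithelial gates. The trophoblast-like gate held 133 EIS cells with all 12 measured markers. It held 2 EL cells, in which 4 of those 12 had UMIs and PAG1, PAG6 and SMPDL3A had 0, so trophoblast-like cells were described in EIS alone.

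Over the whole libraries IGFBP2 gave 57 UMIs in EL, or 1.32 CPM, and 46045 in EIS, or 1277 CPM. IGF1 gave 90 UMIs in EL, or 2.08 CPM, and 247 in EIS, or 6.85 CPM. In the EL library no cell held more than 4 IGFBP2 UMIs. In the EIS library the 50 cells with the most IGFBP2, 0.621% of the cells, held 54.5% of its UMIs.

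**Figure D1:**
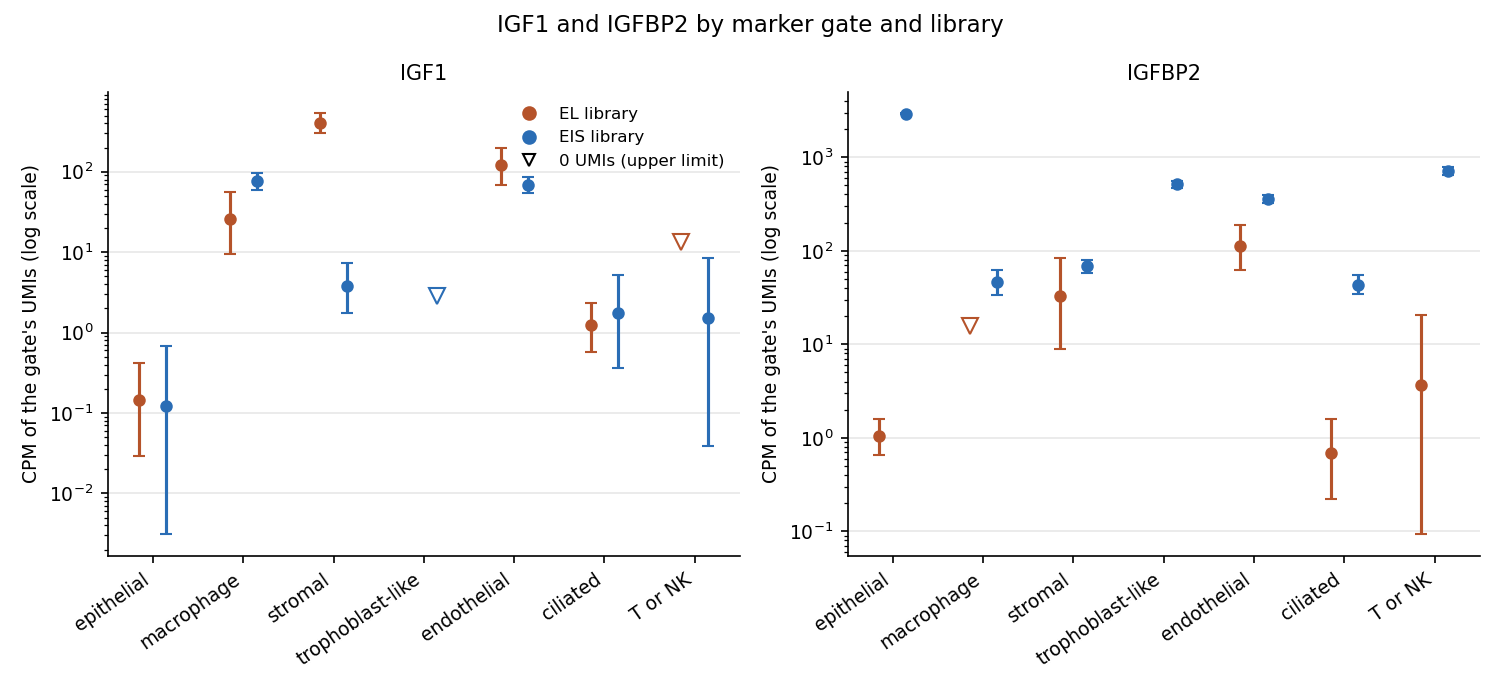
Level of IGF1 (left) and IGFBP2 (right) in CPM of each gate's UMIs, on a log scale, in the EL and EIS libraries; bars are exact Poisson 95% intervals, and open triangles mark the upper limit where 0 UMIs were counted. IGF1 is highest in EL stromal cells (407 CPM), and IGFBP2 in EIS epithelial cells (2929 CPM).

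The first comparison concerned IGFBP2 in epithelial cells. The 3064 EL epithelial cells held 22 IGFBP2 UMIs, a level of 1.05 CPM (0.659 to 1.59). The 770 EIS epithelial cells held 24022, a level of 2929 CPM (2892 to 2966). IGFBP2 was thus 2785-fold higher in EIS (1839 to 4445), a log2 ratio of EL over EIS of -11.44, while the median gene of these cells had a log2 ratio of 1.17. The largest cluster of the gate was not the same in both libraries, so the ratio does not compare like cells. Of the 63 EIS cells of the gate with IGFBP2 at 0.5% or more of UMIs, 55 lay in 1 cluster with too few EL cells for a level. IGFBP2 was detected in 0.718% of the EL cells (0.451 to 1.09, by the exact Clopper-Pearson method, median depth 4882 UMIs) and in 40.6% of EIS cells (37.2 to 44.2, median depth 8179). With every cell thinned to 1000 UMIs the shares were 0.137% of 2923 EL cells and 20.3% of 708 EIS cells. Ciliated cells, taken as the background of free RNA, held IGFBP2 at 0.689 CPM in EL (5 UMIs in 1335 cells) and at 43.5 CPM in EIS (22.3% of 233 cells, median depth 6953).

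Within the EIS epithelium IGFBP2 was concentrated in few cells, and these were not the cells richest in gland secretions. In the 172 cells with a secretion share under 5%, IGFBP2 stood at 10219 CPM (10083 to 10357). In the 502 cells with a secretion share of 20% or more it stood at 368 CPM (353 to 384), a 27.7-fold difference (26.5 to 29.0). The secretion transcripts are part of the CPM total and made up 57.7% of UMIs in the 502 cells and 0.991% in the 172. They lower the CPM of every other gene in the 502 cells, and the 27.7-fold difference was not corrected for this. Of the 2151 UMIs in these 502 cells, 1885 lay in 9 cells with 10 or more each, and without those the level was 46.5 CPM. EIS ciliated cells, with a secretion share of 0.983%, stood at 34.3 CPM without their 1 cell of 10 or more UMIs. In the 172 low-secretion cells 68 such cells held 21310 of 21418 UMIs, and the others stood at 137 CPM. The 96 cells between these limits held 1694 CPM. FOXA2, the transcription factor that marks uterine gland epithelium, was detected in 168 of the 770 cells. IGFBP2 stood at 207 CPM in cells with FOXA2 and at 3668 CPM in cells without it, 17.7-fold higher without (16.0 to 19.7). Secretion transcripts made up 53.1% of UMIs in cells with FOXA2 and 38.7% in cells without it, and the 17.7-fold ratio was not corrected for this. Absence of a FOXA2 UMI in a cell does not show absence of the transcript, and the depths of both sets were similar (medians of 7590 and 8809 UMIs). Cells with FOXA2 held 9 UMIs in 928 EL cells (1.65 CPM) against 362 UMIs in 168 EIS cells, 125-fold higher in EIS (65.3 to 276). Of the 362 UMIs, 291 lay in 4 cells with 10 or more each. The other EIS cells with FOXA2 stood at 41.3 CPM, against 34.3 CPM in ciliated cells without such a cell. These ciliated cells were all under the secretion limit, whereas the EIS cells with FOXA2 and the 502 cells were not so limited. The 33 ciliated cells at or above the limit held 196 CPM (139 to 268), so these levels were not compared like for like.

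The cells richest in IGFBP2 also carried AQP8, a water channel. AQP8 was chosen as a divider after these values had been seen, so the split is a description. Of the 172 low-secretion cells, the 51 with AQP8 held IGFBP2 at 22643 CPM and the 121 without it at 1509 CPM. Their median depths were 15958 and 5072 UMIs. In cells with AQP8 the IGFBP2 share of a cell's UMIs ran from 0 through a median of 1.93% to 5.92%, and 47 of the 51 lay at 0.5% or more. In the 121 without AQP8 the median share was 0.00343%, the highest 1.71%, and 5 lay at 0.5% or more. All of these 52 cells fell in 1 cluster of 112 EIS cells, led by AKR1C3, IGFBP2, AQP8, TRPV5 and S100A2, that held 26978 of the 45272 IGFBP2 UMIs in kept EIS cells (59.6%). A cluster of 770 EIS cells led by SLPI, UABP-2 and ACP5, with a secretion share of 59.9%, held 224 IGFBP2 UMIs (29.3 CPM).

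All 9 measured epithelial markers had UMIs in the 51 cells with AQP8 (1681 CPM in sum, against 5803 CPM over the 172 low-secretion cells). Of the trophoblast list 9 of 12 had UMIs, with 125 CPM in sum. The stromal list summed to 806 CPM, of which THY1 gave 696 CPM, and the T or NK list to 517 CPM, of which CD247 gave 513 CPM. Over all 172 low-secretion cells the trophoblast list summed to 585 CPM, of which CRYGS gave 245 CPM. In EL epithelial cells that list summed to 209 CPM. The part of these markers in the IGFBP2 level was not tested.

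**Figure D2:**
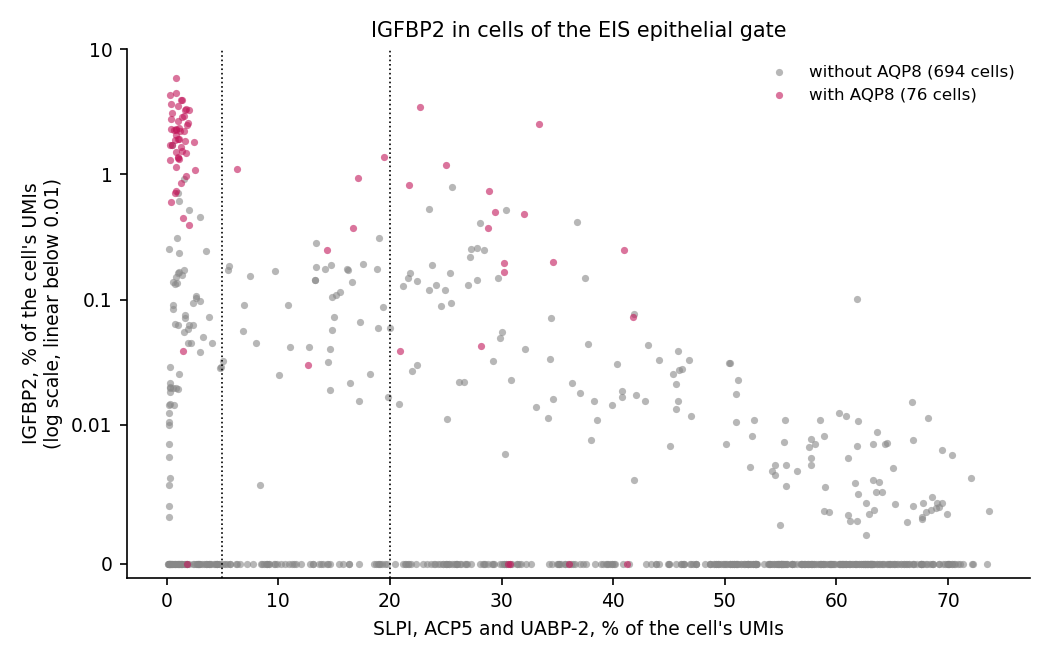
Each point is 1 of the 770 EIS epithelial cells, placed by its secretion share (horizontal axis, % of UMIs) and its IGFBP2 share (vertical axis, % of UMIs, log scale above 0.01 and linear below); pink marks the 76 cells with AQP8, and dotted lines mark secretion shares of 5% and 20%. Most cells above 1% IGFBP2 lie left of the 5% line and carry AQP8.

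Outside the epithelium IGFBP2 in EIS was higher in cells above the secretion limit in the macrophage, stromal, trophoblast-like, endothelial and ciliated gates. T or NK cells held 714 CPM under the limit (328 cells) and 698 CPM above it (23 cells). Of the 471 UMIs under the limit, however, 388 lay in 1 cell, and the other cells stood at 130 CPM. The part of free RNA or of joined cells in this was not tested. In the stromal gate, 1704 cells at or above 5% held IGFBP2 at 1228 CPM (1197 to 1259), close to the 1277 CPM of the whole library, and 186 cells under 5% held 68.2 CPM (58.0 to 79.6). In the trophoblast-like gate 838 cells above the limit held 1287 CPM and 133 cells under it 512 CPM. In macrophages the values were 586 CPM (89 cells) and 46.4 CPM (173 cells). EL macrophages held 0 IGFBP2 UMIs in 59 cells, which allows 12.7 CPM for 3 UMIs. The low-secretion EIS macrophage level did not differ from that of ciliated cells beyond counting error (ratio 1.07, 0.716 to 1.58).

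**Figure D3:**
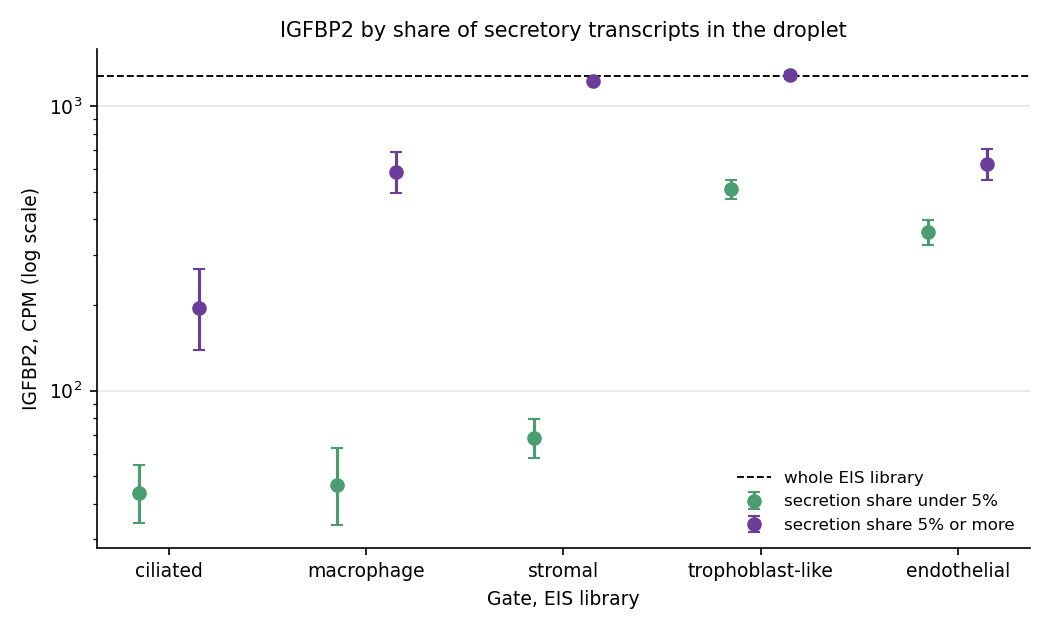
IGFBP2 in CPM (log scale) in 5 gates of the EIS library, for cells with a secretion share under 5% and of 5% or more; bars are exact Poisson 95% intervals and the dashed line is the whole EIS library (1277 CPM). Stromal and trophoblast-like cells at or above 5% sit near the level of the whole library (1228 and 1287 CPM), and low-secretion macrophages sit with ciliated cells.

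Among low-secretion trophoblast-like cells IGFBP2 was found in 25.6% of cells (18.4 to 33.8, median depth 7128 UMIs), near the 22.3% of ciliated cells. Of its 658 UMIs, 619 lay in 7 cells with 10 or more each. The other 126 cells stood at 33.3 CPM, near the 34.3 CPM of ciliated cells without their 1 cell of 10 or more UMIs. Among subsets divided by markers, 65 cells with CHGA and CYP11A1 had 406 CPM and 27.4 CPM once their 3 IGFBP2-rich cells were left out, and 9 cells with UPK2 and GATA3 had 149 CPM. The 59 cells with neither pair had 759 CPM, and 23.7 CPM once 3 cells holding 385 UMIs were left out. In T or NK cells, likewise, 388 of 471 EIS UMIs lay in 1 cell.

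In EIS stromal cells the level differed between cells with and without HAND1, MEST or DLK1, genes typical of conceptus mesenchyme. The 137 EIS cells with any of them held IGFBP2 at 26.5 CPM (19.9 to 34.6), below ciliated cells (ratio 0.610, 0.421 to 0.878). The 49 EIS cells with none held 106 UMIs or 343 CPM (280 to 414), 7.88-fold above ciliated cells (5.80 to 10.8). Median depths were 15164 UMIs with these genes and 4229 without, and absence of a UMI does not show absence of a transcript. The 57 EL stromal cells had none of the 3 genes and held 4 IGFBP2 UMIs, 32.5 CPM (8.86 to 83.3). Over the stromal cells without those genes IGFBP2 was 10.5-fold higher in EIS (3.99 to 39.4), and over the whole gate 2.1-fold higher, with an interval that includes no difference (0.803 to 7.79). Of the 106 UMIs, 46 lay in 3 cells, and without these the level was 211 CPM. In these 49 cells SLPI transcripts were 18.1 times as frequent as IGFBP2 transcripts, against 165 in ciliated cells and 105 in macrophages. The ratio was 9.75 in trophoblast-like, 11.4 in endothelial and 14.0 in T or NK cells, so a low ratio was not particular to these stromal cells.

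In endothelial cells IGFBP2 stood above the level of ciliated cells in both libraries. The 36 EL cells held 14 UMIs (113 CPM, 61.8 to 190) and the 148 EIS cells 376 UMIs (360 CPM, 325 to 398), 3.19-fold higher in EIS (1.88 to 5.89). Of the 376 EIS UMIs, 197 lay in 9 cells with 10 or more each, and the other cells stood at 187 CPM. In EL all 14 UMIs lay in the 20 cells without LYVE1 or PROX1, markers of lymphatic endothelium, at 197 CPM (108 to 331), and the 16 cells with them held 0, which allows up to 56.8 CPM for 3 UMIs. In EIS both sets stood at 360 CPM, but in the 42 cells with LYVE1 or PROX1 119 of 152 UMIs lay in 4 cells and the rest at 89.4 CPM. In the cells without these markers IGFBP2 was 1.83-fold higher in EIS (1.07 to 3.40). There 78 of 224 EIS UMIs lay in 5 cells with 10 or more each. The rest stood at 248 CPM, within the EL interval of 108 to 331 CPM.

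The second comparison concerned IGF1, which was higher in EL in stromal cells. The 57 EL stromal cells held 50 IGF1 UMIs, 58.1% of all IGF1 UMIs in kept EL cells, at 407 CPM (302 to 536). The 186 EIS stromal cells held 9, at 3.84 CPM (1.75 to 7.28). IGF1 was thus 106-fold higher in EL (51.6 to 245) over the whole gate, but the gate did not hold the same cells in both libraries. The 137 EIS cells with HAND1, MEST or DLK1 held 0 IGF1 UMIs (up to 1.47 CPM for 3 UMIs). All 9 UMIs lay in the 49 cells without these genes, at 29.1 CPM (13.3 to 55.2), and against these the EL level was 14.0-fold higher (6.81 to 32.3). Without the secretion limit, 1152 EIS cells lacking these genes held 20 IGF1 UMIs (6.63 CPM, 4.05 to 10.2), and the log2 ratio of EL over EIS was 5.94 in place of 3.81. Of 738 cells with these genes, 7 then had an IGF1 UMI.

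Cell by cell, 20 of 57 EL stromal cells (35.1%, 22.9 to 48.9) held IGF1: 12 cells had 1 UMI, 3 had 2 or 3, and 5 had 4 or more, with 9 the most. In EIS 4 of 49 cells (8.16%, 2.27 to 19.6) held it and none had more than 3. The EL cells were shallower, with a median of 1068 UMIs against 4229. Thinned to 1000 UMIs, 8 of 29 EL cells (27.6%) and 0 of 39 EIS cells held IGF1, and the exact upper bound for 0 of 39 was 9.03%. The stromal list summed to 38393 CPM in the EL cells and 82648 CPM in the 49 EIS cells, and the epithelial list to 1228 and 620 CPM. The endothelial list had 0 UMIs in EL and 58.2 CPM in EIS. The ciliated list summed to 919 CPM in EL, of which TPPP3 gave 667 CPM, and to 155 CPM in EIS. The muscle or pericyte list was lower in EL, at 155 against 979 CPM, and the part of these markers in the difference was not tested.

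In macrophages IGF1 was higher in EIS, with 6 UMIs in 59 EL cells (25.5 CPM, 9.35 to 55.4) against 71 UMIs in 173 EIS cells (76.7 CPM, 59.9 to 96.7), 3.01-fold higher in EIS (1.32 to 8.48). The EIS UMIs lay almost entirely in cells with LYVE1 or MRC1, markers of resident tissue macrophages. In 71 such cells 69 UMIs gave 143 CPM (111 to 181), and 102 cells without them held 2 UMIs, 4.51 CPM (0.546 to 16.3), a 31.7-fold difference (8.45 to 267). Of the 71 cells, 38 held IGF1 (53.5%, 41.3 to 65.4), most of them 1 to 3 UMIs. Without the secretion limit IGF1 stood at 65.5 CPM in all EIS macrophages (262 cells), and at 114 CPM in the 129 with LYVE1 or MRC1, of which 33.3% held it. EL macrophages included only 5 cells with LYVE1 or MRC1, which held 2 UMIs (105 CPM, 12.8 to 381). Within these cells the EL over EIS ratio was 0.737 (0.0875 to 2.77), so at this depth no difference was detectable. In cells without LYVE1 or MRC1 it was 4.09 (0.587 to 45.3). Cells with these markers were 5 of 59 in EL and 71 of 173 in EIS, and the part of this mix in the difference over the whole gate was not tested.

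IGF1 was also found in endothelial cells. The 16 EL cells with LYVE1 or PROX1 held 12 UMIs, 227 CPM (117 to 397), and the 42 EIS cells 71 UMIs, 168 CPM (131 to 212), a ratio of 1.35 (0.667 to 2.51). Cells without these markers held 3 UMIs in EL (42.2 CPM) and 1 in EIS (1.61 CPM). IGF1 was 105-fold higher with than without the markers in EIS (18.2 to 4189) and 5.38-fold higher in EL (1.45 to 29.7). Over the whole gate IGF1 had a level of 121 CPM (EL) and 68.9 CPM (EIS), a ratio of 1.76 whose interval includes no difference (0.935 to 3.09). Of the 71 EIS UMIs, 23 lay in 2 cells. Without the secretion limit the EIS levels were 61.6 CPM in all endothelial cells, 146 CPM with LYVE1 or PROX1 and 11.1 CPM without. In whole clusters, taken without the secretion limit, a cluster named endothelial held 0 IGF1 UMIs in 17 EL cells and 1 in 131 EIS cells. Another cluster named endothelial held 3 in 188 EIS cells. An unnamed cluster led by MMRN1, a gene of lymphatic endothelium, held 16 in EL and 91 in EIS, the latter in 294 cells with a secretion share of 19.9%.

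**Figure D4:**
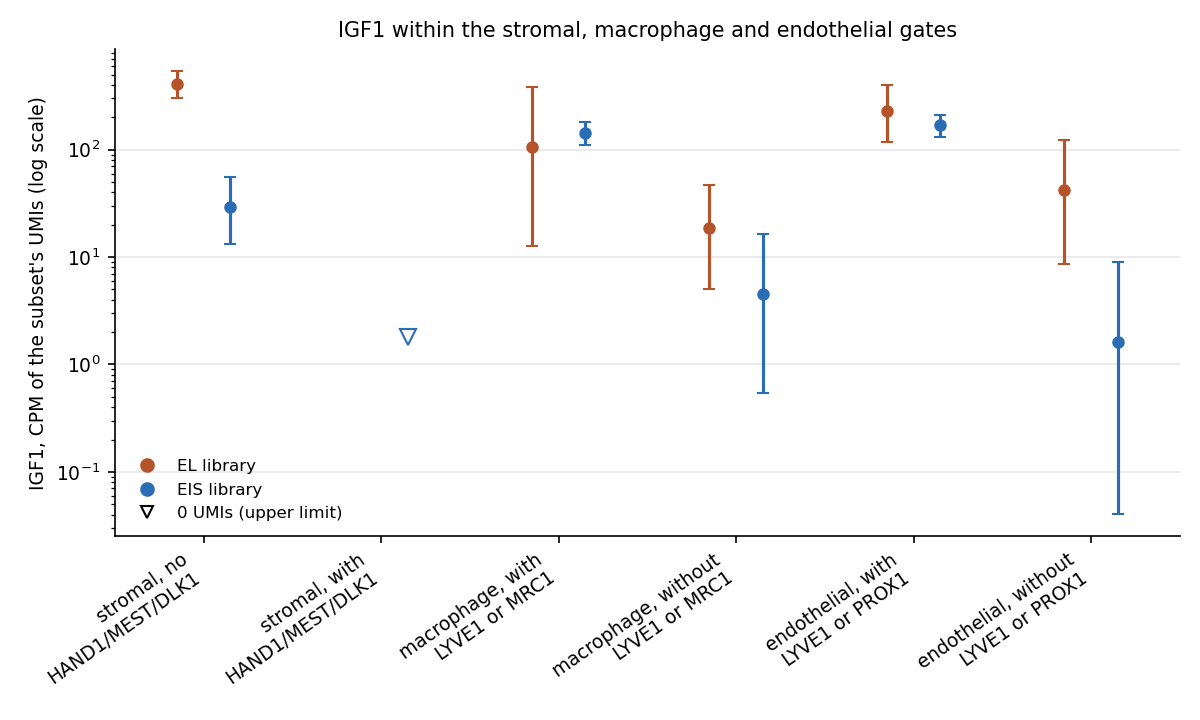
IGF1 in CPM (log scale) in subsets of the stromal, macrophage and endothelial gates, in EL and EIS; bars are exact Poisson 95% intervals, and the open triangle is the upper limit for 0 UMIs in EIS stromal cells with HAND1, MEST or DLK1. EL stromal cells (407 CPM) sit above EIS stromal cells (29.1 CPM), and cells with lymphatic or resident macrophage markers sit between 105 and 227 CPM in both libraries.

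IGF1 was at or near 0 in the remaining gates. Trophoblast-like cells held 0 UMIs in 133 cells, which allows 2.33 CPM for 3 UMIs and an exact upper bound of 2.74% for the share of cells with a UMI. Without the secretion limit the gate held 14 IGF1 UMIs in 971 cells (2.64 CPM). Epithelial cells held 3 UMIs in EL and 1 in EIS, and ciliated cells 9 and 3 (1.24 and 1.76 CPM). In EL the order of IGF1 levels was stromal, endothelial with LYVE1 or PROX1, macrophage with LYVE1 or MRC1 (105 CPM from 2 UMIs), endothelial without (42.2 CPM from 3 UMIs) and macrophage without (18.5 CPM from 4 UMIs). The intervals of the last 3 overlap. The first and second did not differ beyond counting error (ratio 1.79, 0.940 to 3.69). In EIS it was endothelial with LYVE1 or PROX1, macrophage with LYVE1 or MRC1, stromal without HAND1, MEST or DLK1, and then the other macrophages. There too the first and second did not differ beyond counting error (ratio 1.18, 0.832 to 1.66).

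The other genes of the axis were taken from a list of 44 genes, of which 30 had a symbol among the features. IGF2, IGF2R, IGFBP3 and 11 more were not analysed here for lack of one. A gene was counted when its EL over EIS ratio, relative to the median gene of the gate, passed 2-fold and it had at least 20 UMIs over both libraries. In epithelial cells 25 axis genes had enough UMIs. Of these, 2 were higher in EL and 14 in EIS, beside 16.9% (EL) and 18.7% (EIS) of all 14016 genes. The median relative log2 ratio of the 25 was -1.44. The binding proteins IGFBP2 and IGFBP7 were higher in EIS, the latter at 4.59 against 131 CPM (28.5-fold, 23.1 to 35.5). FOXO1, a transcription factor held back by this pathway, stood at 22.9 and 71.1 CPM (3.10-fold, 2.75 to 3.51). PIK3R1, the regulatory subunit of PI3 kinase, stood at 103 and 124 CPM and passed only relative to the median gene. The adaptor IRS1 was higher in EL, 64.5 against 6.58 CPM (9.80-fold, 7.47 to 13.1). The other gene higher in EL was PAPPA2, named after its values were seen, with 45 UMIs in EL and 0 in EIS (at least 5.88-fold). The receptor IGF1R stood at 21.4 and 18.9 CPM and did not pass. Without centring on the median gene the same list gave 8 genes higher in EL and 8 higher in EIS.

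In stromal cells without HAND1, MEST or DLK1, 13 axis genes had enough UMIs, 2 higher in EL and 5 in EIS, beside 11.4% and 15.0% of 3625 genes. The binding proteins lay on both sides. IGFBP6 was higher in EL with IGF1, at 3716 against 417 CPM (8.92-fold, 7.32 to 10.9). IGFBP5 was higher in EIS, at 114 against 3099 CPM (27.2-fold, with 14 and 959 UMIs), as were IGFBP4 (48.8 and 365 CPM, 7.48-fold, 3.33 to 20.8) and IGFBP7 (1431 and 5254 CPM, 3.67-fold, 3.14 to 4.31). FOXO1 passed at the limit with 7 and 33 UMIs, and the interval of its ratio includes no difference. IGF1R held 0 and 2 UMIs. Over the whole stromal gate 8 of 22 genes were higher in EL and 6 in EIS, beside 16.2% and 18.9% of 8767 genes. There IRS1 (97.6 and 13.6 CPM), PIK3R1 (317 and 52.4 CPM), SHC1 (106 and 29.8 CPM) and SOCS2, a feedback inhibitor of growth hormone signalling (65.1 and 13.6 CPM), were higher in EL. In stromal cells without HAND1, MEST or DLK1 these calls ended: PIK3R1 stood at 317 and 204 CPM, SHC1 at 106 and 84.0 CPM, SOCS2 at 65.1 and 77.5 CPM on the other side, and IRS1 had 12 and 2 UMIs, too few to count. Over the whole stromal gate IGF2BP2, an RNA-binding protein, had 0 UMIs in EL and 227 in EIS (at least 3.97-fold higher in EIS). In the stromal cells without HAND1, MEST or DLK1 it had 0 and 6 UMIs, too few to count.

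In macrophages 15 axis genes had enough UMIs, 0 higher in EL and 5 in EIS, beside 7.49% and 10.4% of 6637 genes. IGFBP4 stood at 12.7 CPM in EL (3 UMIs) and 55.1 CPM in EIS (4.33-fold, 1.40 to 21.7), and within the EIS macrophages 49 of its 51 UMIs lay in cells with LYVE1 or MRC1, as for IGF1. IGF1R had 2 and 5 UMIs, too few to count. The others were IGF1, IGFBP2, AKT2 and IGF2BP3, of which the last pair was named after the values were seen. IGFBP2 in these EIS macrophages did not differ from EIS ciliated cells beyond counting error (ratio 1.07, 0.716 to 1.58). In ciliated cells IGFBP2 was itself 63.1-fold higher in EIS (25.8 to 200). In endothelial cells 0 of 19 were higher in EL and 5 in EIS, beside 9.59% and 14.2% of 7317 genes. They were IGFBP2, IGFBP4 (80.7 and 204 CPM, 2.53-fold, 1.35 to 5.35), SHC1 (56.5 and 158 CPM, 2.80-fold, 1.33 to 7.06) and, named after their values were seen, IGFBP6 and STAT5A. IGF1R, the receptor for IGF1, stood at 40.3 and 75.6 CPM in endothelial cells and did not pass. In the trophoblast-like cells, where no EL cells were available, IGFBP7 stood at 650 CPM and IGFBP5 at 336 CPM, and IGF1R at 5.45 CPM (7 UMIs).

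**Figure D5:**
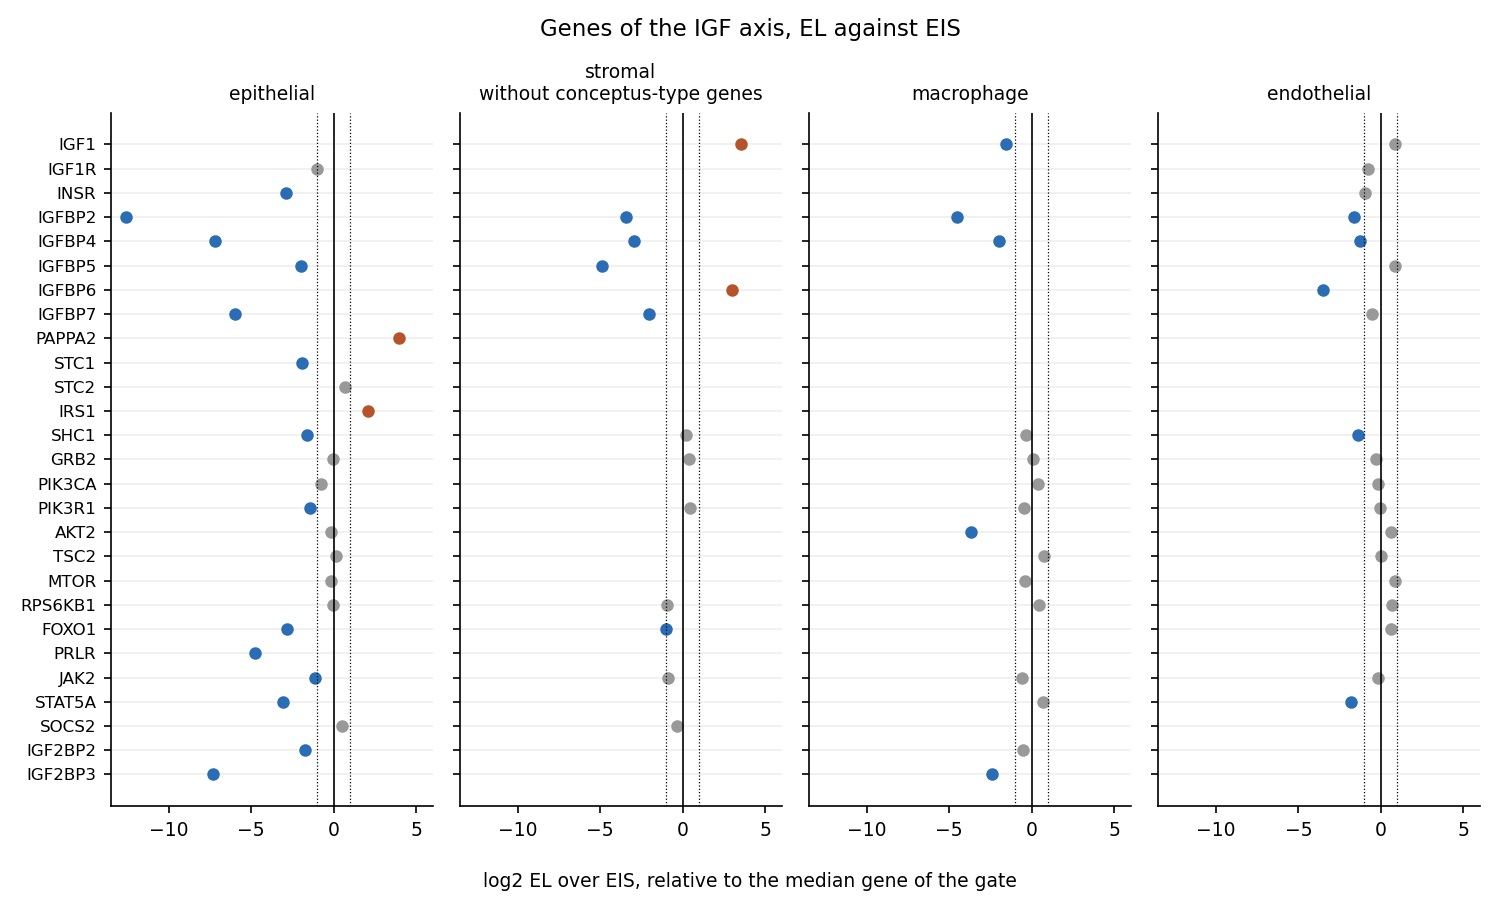
log2 ratio of EL over EIS for genes of the axis with at least 20 UMIs, relative to the median gene, in 4 gates (stromal cells without HAND1, MEST or DLK1); positive values are higher in EL, dotted lines mark 2-fold, and genes past it are coloured. IGFBP2 lies on the EIS side in all 4 gates, and IGF1 on the EL side in stromal cells and on the EIS side in macrophages. The IGFBP2 level of EIS macrophages (46.4 CPM) was near that of EIS ciliated cells (43.5 CPM).

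Genes with a pattern most like each member were ranked over 12 points, each a gate in a library with at least 50 cells, among 7384 genes reaching 20 CPM. The points share 2 libraries and unequal depths, so the correlations are descriptions. IGFBP2 was most like SULT2A1, a sulfotransferase (Pearson r of 0.95 on log2(CPM + 1)), SOD3, an extracellular superoxide dismutase (0.928), AQP8 (0.911), RBP7 (0.896) and UABP-2 (0.894), all highest in EIS epithelial cells. IGF1 was most like the chemokine CCL2 (0.935), CLIC2 (0.920), CREB5 (0.891), PLAC9 (0.891) and ZBTB46 (0.888). CCL2, CREB5 and PLAC9 were highest in EL stromal cells, at 276, 32.5 and 268 CPM, and CLIC2 and ZBTB46 in EIS endothelial cells, at 72.8 and 24.9 CPM.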

How the data were processed

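Endometrial cells of 1 EL and 1 EIS sow were captured with 10x Genomics 3' chemistry. The deposited matrices hold raw UMI counts per gene and cell. They were made with Cell Ranger 2.1.1 per the submitters' processing notes and with cellranger 6.1.0 per the file headers, and for the genome build nothing is given in the sources used here. No symbol was attached to 16128 of the 26881 features. Counts of features with the same symbol were added.

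Cells with at least 500 UMIs and 300 genes were kept. Doublets were the top 0.8% per 1000 barcodes by Scrublet score (957 EL and 626 EIS barcodes), since its automatic threshold called 0 and 3. Clusters came from scanpy 1.11.5 (2000 variable genes, 30 components, 15 neighbours, Leiden resolution 1). A marker was present where its UMIs passed the 95th percentile of a Poisson count at 10% of its library share. Levels are CPM with exact Poisson intervals, ratios have exact conditional intervals, and shares have Clopper-Pearson intervals. These cover counting error only. With 1 library per group no test between groups was made. Axis ratios were smoothed with 0.5 UMIs and centred on the median gene. Scripts were tested on simulated data.

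Named axis genes had at least 50 CPM in 1 library and passed 2-fold, at most 8 per gate, largest ratio first, and IGF1R was always named. The 5 genes most like each member were named. Members, lists and markers were chosen with earlier results of these data known. Alternatives changed the gates, cell filters, secretion limit, scaling (edgeR 4.0.16 for TMM) and thresholds.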

Additional observations from a re-analysis of the deposited data

Results flagged for a closer look

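IGF1 lay on opposite sides in the stromal and macrophage gates. Its log2 ratio of EL over EIS was 6.73 in stromal cells and 3.81 in stromal cells without HAND1, MEST or DLK1, so it was higher in EL there. In macrophages the log2 ratio was -1.59, so it was higher in EIS over the whole gate. In macrophages with LYVE1 or MRC1 the EL over EIS ratio was 0.737 (0.0875 to 2.77). In those without, it was 4.09 (0.587 to 45.3), and both intervals include no difference. Cells with these markers were 5 of 59 in EL and 71 of 173 in EIS. With 1 library per group the difference between the cell types was not tested across sows.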

How the results depend on the processing

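No paired analysis was possible because each group has 1 library. The log2 ratios of IGFBP2 in epithelial, stromal and endothelial cells and of IGF1 in macrophages, stromal and endothelial cells kept their direction wherever an alternative gave a ratio. Over whole clusters endothelial IGF1 gave none, with 0 CPM in EL and 1.42 CPM in EIS, against 121 and 68.9 CPM in the gate. The EL value came from 17 cells with an upper limit of 89.3 CPM, so no order can be read there. In all, 93 alternative ratio values stayed within the counting interval and 9 did not, and 135 axis counts stayed within 1.5 times and 15 did not. The cause of the other changes was not tested. The log2 ratio of IGFBP2 in epithelial cells (-11.44) became -12.22 with 1 more marker required, -12.48 with TMM scaling and -12.36 with genes over 1% of UMIs left out of the total. In endothelial cells IGF1 (0.81) became 1.70 as a mean over cells, and IGFBP2 (-1.67) became -2.63 as a mean over cells and -0.41 over whole clusters. In stromal cells IGF1 without conceptus-type genes (3.81) became 5.94 with no secretion limit, and IGFBP2 (-1.07) became -4.71 with no limit and -3.47 with a limit of 10%. These limits were chosen after seeing the data. Axis genes higher in EL numbered 0 in endothelial cells, and 1 with 10% of free RNA subtracted, 3 with no UMI minimum and 2 over whole clusters. They numbered 2 in epithelial cells and 8 without centring; 0 in macrophages and 3 with no UMI minimum; 8 in stromal cells and 4 at 4-fold. In stromal cells without conceptus-type genes they numbered 2, and 5 with no UMI minimum and 4 with no secretion limit. Axis genes higher in EIS numbered 14 in epithelial cells, and 8 both without centring and at 4-fold. At 4-fold they numbered 1 in endothelial cells (from 5), 3 in macrophages (from 5) and 3 in stromal cells (from 6). In stromal cells without conceptus-type genes they numbered 5, and 9 with no UMI minimum and 3 over whole clusters. Depth limits both genes in EL, with 86 IGF1 and 56 IGFBP2 UMIs in kept cells, and IGF1 in EIS, with 235.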

Other observations

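IGFBP2 was also high in EIS cells that met no gate. Of 8048 kept EIS cells, 305 (3.79%) had IGFBP2 at 0.5% or more of their UMIs, and these held 71.2% of its UMIs. The epithelial gate held 63 of them and 102 met no gate, with a median depth of 1616 UMIs. An AQP8 UMI was found in 209 of the 305 and in 751 of the other EIS cells. The highest IGFBP2 share of any cell was 10.7%, in a cell with no gate.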
